A study of Rattus norvegicus with 7 samples.

Results

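The insulin-like growth factor (IGF) binding proteins and the receptors and adaptors that carry the IGF signal into the cell were followed in rat kidney cells given either of 2 siRNAs against Adamts16 or a scrambled siRNA. The family was taken as 10 genes: Igfbp2 to Igfbp7, the receptor genes Igf1r and Igf2r, and the receptor adaptor genes Irs1 and Irs2. All probe sets annotated to these symbols alone were used, 18 of the 31042 that are not array controls. The group was selected on the signal of Igfbp5, which moved in opposite directions with the 2 siRNAs, so the values of Igfbp5 are given as a description, with no test. The members and the pathway lists used below were chosen with earlier results of these data known. The tests of the other 9 genes and of the lists are therefore not free of selection. Of these 9 genes, the 7 with a probe set bright enough were tested.

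The 7 arrays hold RNA of NRK-52E, a rat kidney epithelial line, from independent cultures per the series design. One pair of cultures received the siRNA named Adamts16-3488, another pair the siRNA named Adamts16-2600, and 3 received a scrambled siRNA, so transfection itself was common to all groups. All were grown in medium with 10% serum, seeded at 20% confluence and transfected by lipofection at 100 pmol of duplex per ml of medium. They were harvested after 48 h, and 5 ug of total RNA was labelled. Adamts16 encodes a secreted metalloprotease studied in connection with inherited hypertension, and the comparisons ask what changes when it is targeted. Each value is a signal, a linear intensity in arbitrary units for 1 probe set on 1 array. It can be compared between arrays but not between probe sets.

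IGF1 and IGF2 act through the IGF1 receptor, a tyrosine kinase that signals through the adaptors IRS1 and IRS2 to the PI3K-AKT and Ras-MAPK branches. The IGF2 receptor has no kinase and takes IGF2 and lysosomal enzymes into the cell. The binding proteins are secreted and hold IGFs outside the cell, where proteases release them, and IGFBP5 also binds to extracellular matrix. Tubule cells of the kidney carry IGF receptors and secrete several of the binding proteins.

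The duplexes are shown because Igfbp5 was selected for a difference between the 2 Adamts16 siRNAs. The antisense strands below are written 5′ to 3′ without their overhangs, and capitals mark the seed, bases 2 to 8.
siRNA 3488: tTTCCGGAgacgtacttct
siRNA 2600: tTGCGCACagaaatatagg
scrambled control: aTTACCGAgcacattggagg
Each is the exact reverse complement of its sense strand, and the last is 20 bases long where the other two are 19. The 3 seeds differ, with 4, 5 and 3 G or C among 7 bases, and 0 of 724 mature rat miRNAs of RefSeq (build GRCr8) has any of them as its own seed. Matches of the seeds to transcripts were not searched for.

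Adamts16 itself was too dim for its knockdown to be checked. Its single probe set, 1385969_at, read 8.68, 7.18 and 18.9 in the control cultures, 12.1 and 40.4 after siRNA 3488 and 21.4 and 2.42 after siRNA 2600. These lie far below the signal of 68.2 that a probe set needed on average to be tested. The 18625 brightest of the 31042 probe sets (the upper 60%) were tested with limma, and a probe set was called at a Benjamini-Hochberg adjusted p under 0.05 over all of them.

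The arrays differed in more than these genes. On the first principal component (39.2% of the variance) siRNA 2600 replicate 1 lay among the control arrays, and the siRNA 3488 arrays lay farthest from them. Bright probe sets read higher with siRNA 3488. The brightest 10% had a median log2 change of 0.15 and the brightest 1% a median of 0.44, against 0.05 and 0.06 with siRNA 2600. The 18 probe sets of transcripts added at hybridisation differed from the mean of the controls by 0.34 and 0.71 (median, log2) for siRNA 3488 and by -0.08 and 0.13 for siRNA 2600. The 3′ over 5′ ratio of the actin probe sets, a measure of RNA integrity, was 1.96 and 1.94, 1.83 and 1.81, and 1.74 to 1.79 with siRNA 3488, siRNA 2600 and the control. That of Gapdh was 0.941 and 0.929, 1.04 and 0.929, and 0.908 to 0.948 and did not separate the groups. As for cell identity, Krt8 and Krt19 were the 2 of 8 epithelial markers on the arrays that passed the signal filter, while Krt18, Cdh1, Cdh16, Epcam, Pax2 and Pax8 did not. Of 8 proximal tubule markers Lrp2, Aqp1, Ggt1 and Anpep passed, and Cubn, Slc34a1, Slc5a2 and Hnf4a did not. Of 8 fibroblast markers Col1a1, Col3a1, Pdgfrb and Acta2 passed, and Pdgfra, Thy1, Dcn and Lum did not. With siRNA 3488 Col1a1 and Col3a1 were called higher (0.44 on the log2 scale for each), while Acta2 (0.15) and Pdgfrb (0.08) were not called. Of the blood cell markers Cd68 was called higher (0.67) and Cd14 (0.02) was not called, while Ptprc and Csf1r were below the filter. The summed signals, which follow the brightest probe set of each list, were higher with siRNA 3488 than with the control for 3 kinds of marker. They were 28934 to 32983 against 22467 to 23311 for fibroblasts, where Col3a1 gave most of the sum, 6716 to 7433 against 5920 to 6494 for epithelium and 1196 to 1363 against 999.5 to 1179 for proximal tubule. With siRNA 2600 these sums were 23144 to 24614, 6059 to 6219 and 1148 to 1264. The part of these shifts in the results was not tested. In RNA of a whole culture, fewer cells of a type and less RNA per cell cannot be told apart.

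Igfbp5 was higher with siRNA 2600 and lower with siRNA 3488 than with the control. On probe set 1370960_at the signals were 263, 248 and 252 with the control, 538 and 470.2 with siRNA 2600, and 192 and 193 with siRNA 3488. The 3 groups did not overlap, and the control and siRNA 3488 arrays were each tightly grouped. The means were 254 ± 7.58 (SD, n = 3) with the control, 504 ± 48.1 (n = 2) with siRNA 2600 and 192 ± 0.54 (n = 2) with siRNA 3488. On the log2 scale the change was 0.99 with siRNA 2600, a 1.98-fold higher level, and -0.40 with siRNA 3488, where the control was 1.32-fold higher. Between the 2 siRNAs the level differed 2.62-fold.

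The second tested probe set of Igfbp5, 1387348_at, showed the rise more strongly and the fall less clearly. It read 67.7, 87.5 and 67.1 with the control, 242 and 195 with siRNA 2600, and 55.7 and 69.4 with siRNA 3488. Both siRNA 2600 arrays were above every other array. The siRNA 3488 arrays overlapped the control arrays, since replicate 2 lay above 2 of them. The log2 change was 1.56 with siRNA 2600 (2.95-fold) and -0.24 with siRNA 3488. The opposite movement therefore separated all 3 groups on 1 of the 2 tested probe sets, while on the other it held for the means alone.

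The remaining 3 probe sets of Igfbp5 were too dim to be tested. On 1396152_s_at the groups again stood apart in the same order, with 93.9 and 103 for siRNA 2600, 38.4, 43.6 and 34.9 for the control and 26.3 and 18.1 for siRNA 3488. On 1397830_at the siRNA 2600 arrays, 59.6 and 55.7, were above all others, while the control arrays spread from 9.72 to 48.6 around the siRNA 3488 arrays, 21.0 and 14.4. On 1387347_at all 7 signals lay between 7.22 and 19.9 with no separation of the groups. The rise with siRNA 2600 was thus seen on both of its arrays on 4 of 5 probe sets, and the fall with siRNA 3488 on 2 of 5. Of all probe sets tested, 34.0% did not overlap the control in either direction with siRNA 2600. With siRNA 3488, 31.1% lay below every control array. All 5 probe sets measure the gene chosen for this pattern and 3 were below the filter, so the counts are a description.

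**Figure D1:**
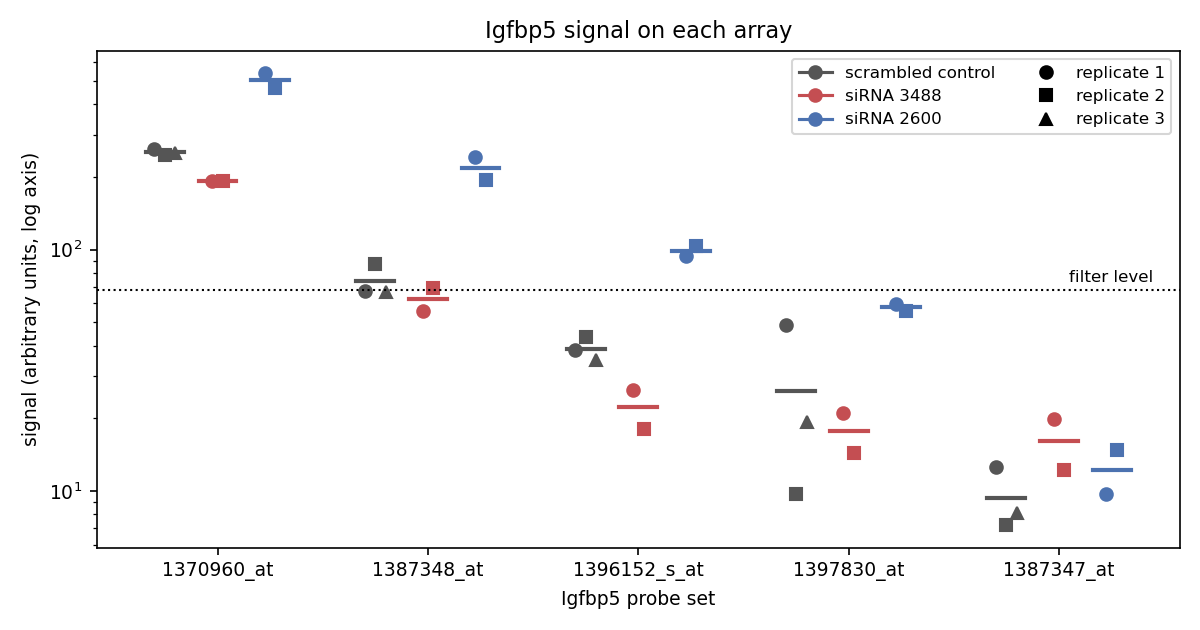
Signal of each array on the 5 probe sets annotated to Igfbp5 (y axis in arbitrary units, log axis), coloured by group with the replicate number as symbol; bars are group means and the dotted line is the signal of 68.2 needed on average for testing. On 1370960_at the siRNA 2600 arrays (538 and 470.2) lie above and the siRNA 3488 arrays (192 and 193) below the 3 control arrays.

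The pattern that led to the choice of Igfbp5 was counted over all probe sets. Of the 18625 probe sets tested, 399 (2.14%) had both siRNA 3488 arrays below and both siRNA 2600 arrays above every control array, and 224 (1.20%) had the reverse. With 1370960_at among the 399 by choice, nothing further is read from the count. Both comparisons share the 3 control arrays.

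**Figure D2:**
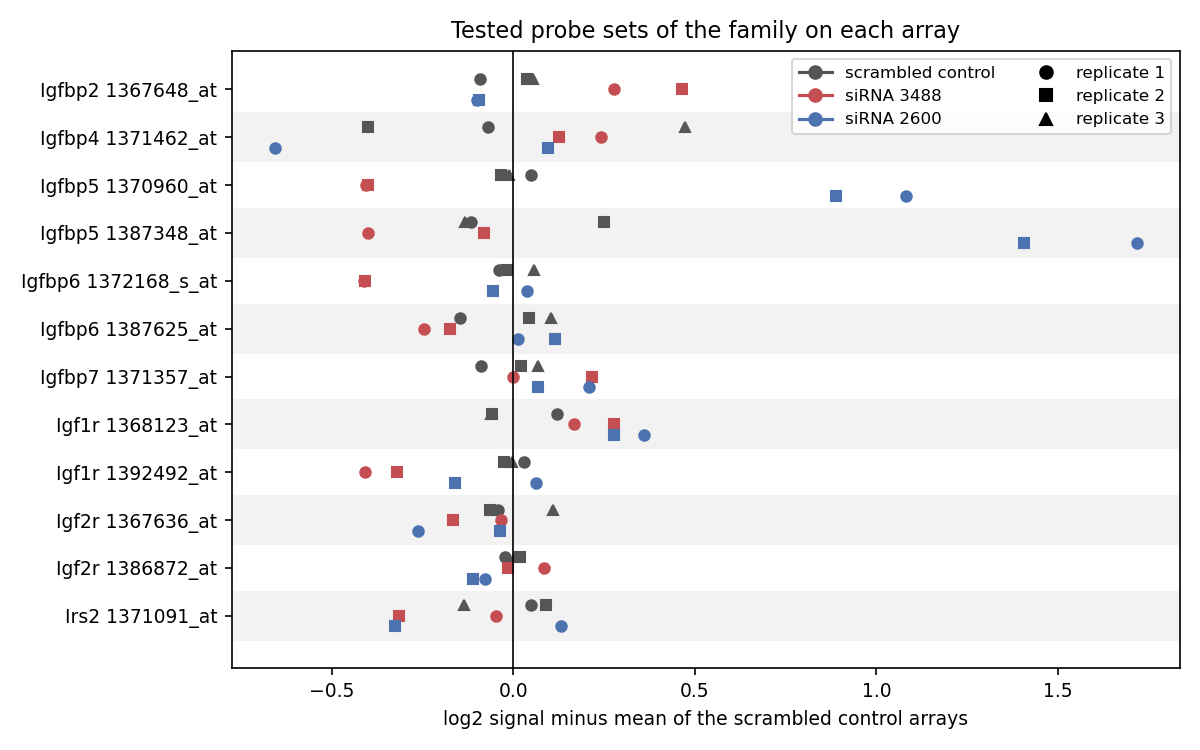
Log2 signal of each array minus the mean of the 3 control arrays (x axis) for the 12 tested probe sets of the family, coloured by group with the replicate number as symbol. The 2 Igfbp5 probe sets stand farthest to the right with siRNA 2600, and Igfbp6 1372168_s_at and Igf1r 1392492_at stand to the left with siRNA 3488.

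Among the other genes, 7 had at least 1 tested probe set, 10 probe sets in all. With siRNA 3488, 1 of the 10 rose and 2 fell, and with siRNA 2600 none was called. Of all 18625 probe sets 15.6% were called with siRNA 3488 (6.89% higher and 8.74% lower) and 1.03% with siRNA 2600. The median log2 change of the 10 was -0.03 with siRNA 3488 and -0.07 with siRNA 2600, beside -0.06 and -0.02 over all probe sets tested. At an unadjusted limma p under 0.05 the count was 4 with siRNA 3488, 1 with siRNA 2600 (Igf1r 1368123_at) and 4 between the siRNAs. The share of all probe sets at that level is not given here, so nothing is read from these counts. The arrays of the groups compared did not overlap on 5 of the 10 with siRNA 3488 and on 3 with siRNA 2600, beside 50.3% and 34.0% of all probe sets. Compared directly, siRNA 3488 was above siRNA 2600 on 1 of the 10 and below it on 1, with 6.01% of all probe sets called (2.84% higher and 3.17% lower).

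Igfbp6 fell with siRNA 3488. Its protein binds IGF2 in preference to IGF1. On 1372168_s_at the signals were 4225, 4291 and 4522 with the control, 4455 and 4178 with siRNA 2600, and 3263 and 3273 with siRNA 3488. The siRNA 3488 arrays were below all others, while those of siRNA 2600 lay around the control range. The log2 change was -0.41 ± 0.06 with siRNA 3488 (SE; limma adjusted p = 0.00440) and -0.01 ± 0.06 with siRNA 2600 (limma adjusted p = 0.959). Set against siRNA 2600 directly, siRNA 3488 was lower by -0.40 ± 0.07 (limma adjusted p = 0.0144). The fall against the control was called under all 17 processing alternatives tried, with changes from -0.52 to -0.32 and adjusted p from 0.00168 to 0.0492. The difference between the siRNAs lost its call without siRNA 3488 replicate 2 (limma adjusted p = 0.0690), without siRNA 2600 replicate 1 (0.0750), without an intensity trend (0.0964) and with the 4 siRNA arrays alone (0.0960).

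The other probe set of Igfbp6, 1387625_at, read 3640.3, 4154 and 4337 with the control, 4068 and 4369 with siRNA 2600 and 3398 and 3571 with siRNA 3488. The siRNA 3488 arrays again were the lowest, with replicate 2 close to the lowest control array. Its change of -0.21 ± 0.08 did not pass (limma adjusted p = 0.101). It passed under 2 of 17 alternatives, quantile normalization (-0.31, limma adjusted p = 0.0229) and cyclic loess (-0.32, limma adjusted p = 0.0226). After median centring the change was -0.12 (limma adjusted p = 0.436). Both probe sets of Igfbp6 thus had the siRNA 3488 arrays below every control array, as had 31.1% of all probe sets tested.

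Igfbp2 rose with siRNA 3488, but its size and direction depended on the scaling of the arrays. Its gene is the direct neighbour of Igfbp5 in the RefSeq annotation. The signals of 1367648_at were 12672, 13850.0 and 14005 with the control, 12588 and 12644 with siRNA 2600 and 16343 and 18628 with siRNA 3488. Both siRNA 3488 arrays lay above the rest, and both siRNA 2600 arrays lay just below the lowest control array. The change was 0.37 ± 0.07 with siRNA 3488 (limma adjusted p = 0.0109) and -0.10 ± 0.07 with siRNA 2600 (limma adjusted p = 0.585), and the 2 siRNAs differed by 0.47 ± 0.08 (limma adjusted p = 0.0152). On average 99.6% of probe sets on an array read no higher than this one, and the brightest 1% had the median change of 0.44 given above. After quantile normalization, which gives all arrays the same distribution, the change with siRNA 3488 was -0.06 (limma adjusted p = 0.337), and after cyclic loess it was 0.08 (limma adjusted p = 0.263). Its call was also lost without siRNA 3488 replicate 2 (0.28, limma adjusted p = 0.0761). Against siRNA 2600 it was lost after quantile normalization (0.12, limma adjusted p = 0.153), without that same array (0.0740) and without siRNA 2600 replicate 1 (0.0796).

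The remaining binding proteins were not called in any comparison. Igfbp7, whose protein is related to the family but binds IGFs weakly, read 5703, 6165 and 6367 with the control, 7013 and 6359 with siRNA 2600 and 6065 and 7055 with siRNA 3488. Those ranges overlapped, and the changes were 0.11 ± 0.08 with siRNA 3488 and 0.14 ± 0.08 with siRNA 2600 (limma adjusted p = 0.402 and 0.471). For Igfbp4, a target of the protease PAPP-A, the 3 control arrays alone ran from 297 to 544. This was a wider range than the 428 to 464 of siRNA 3488, and siRNA 2600 gave 249 and 419. Its standard error of 0.26 was the largest of the 10 tested probe sets in these 2 comparisons, and the 95% interval of its change ran from -0.38 to 0.75 with siRNA 3488 and from -0.85 to 0.29 with siRNA 2600. Igfbp3, the main carrier of IGFs in blood, was below the signal filter on both of its probe sets, with signals from 5.96 to 76.2. Its probe sets gave opposite directions with siRNA 3488, -1.49 on 1367652_at and 1.38 on 1386881_at, with standard errors of 0.85 and 0.75 in a fit with no filter.

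The IGF1 receptor gave different results on its 2 probe sets. On 1392492_at the signals were 1186, 1139.9 and 1159 with the control, 1212 and 1039 with siRNA 2600 and 874 and 930.4 with siRNA 3488. Both siRNA 3488 arrays were below all others, and the change of -0.36 ± 0.08 passed (limma adjusted p = 0.0187). The call was lost without either siRNA 3488 array or any 1 of the 3 control arrays (limma adjusted p from 0.0510 to 0.0830), after median centring (-0.27, adjusted p = 0.130) and without an intensity trend (0.0684). On 1368123_at the control arrays were the lowest, with 384, 339 and 338 for the control, 453 and 428 for siRNA 2600 and 396 and 427 for siRNA 3488. All 4 siRNA arrays were above the 3 control arrays there, as for 6.66% of the probe sets tested. The changes of 0.32 ± 0.11 with siRNA 2600 and 0.22 ± 0.11 with siRNA 3488 did not pass (limma adjusted p = 0.218 and 0.207). Since 1 probe set fell with siRNA 3488 while the other read higher, no direction is given for the gene.

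Igf2r did not pass on either of its probe sets. On 1386872_at the control arrays read 1832, 1887 and 1868, siRNA 3488 gave 1973 and 1843, and siRNA 2600 gave 1765 and 1724, both just below the control range. The 95% interval of the change was -0.11 to 0.18 with siRNA 3488 and -0.24 to 0.05 with siRNA 2600. On 1367636_at the signals of all 7 arrays ran from 719 to 930.3 and the groups overlapped, with changes of -0.10 ± 0.10 and -0.15 ± 0.10.

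Of the adaptors, Irs2 read 564, 579.8 and 496 with the control, 597 and 434 with siRNA 2600 and 528 and 438 with siRNA 3488. The spread within each siRNA pair was larger than the distance to the control, and the changes were -0.18 ± 0.15 with siRNA 3488 and -0.10 ± 0.15 with siRNA 2600 (limma adjusted p = 0.432 and 0.804). Irs1 was below the filter. Its signals were 73.5, 49.0 and 70.4 with the control, 34.9 and 22.2 with siRNA 2600 and 10.5 and 40.6 with siRNA 3488. All 4 siRNA arrays were lower than all 3 control arrays. The share of all probe sets with that order is not given here, so nothing further is read from it. In a fit of all probe sets with no filter the change was -1.40 ± 0.53 with both siRNAs together (limma adjusted p = 0.313), with a 95% interval from -2.57 to -0.23. At these signals its size is imprecise.

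**Figure D3:**
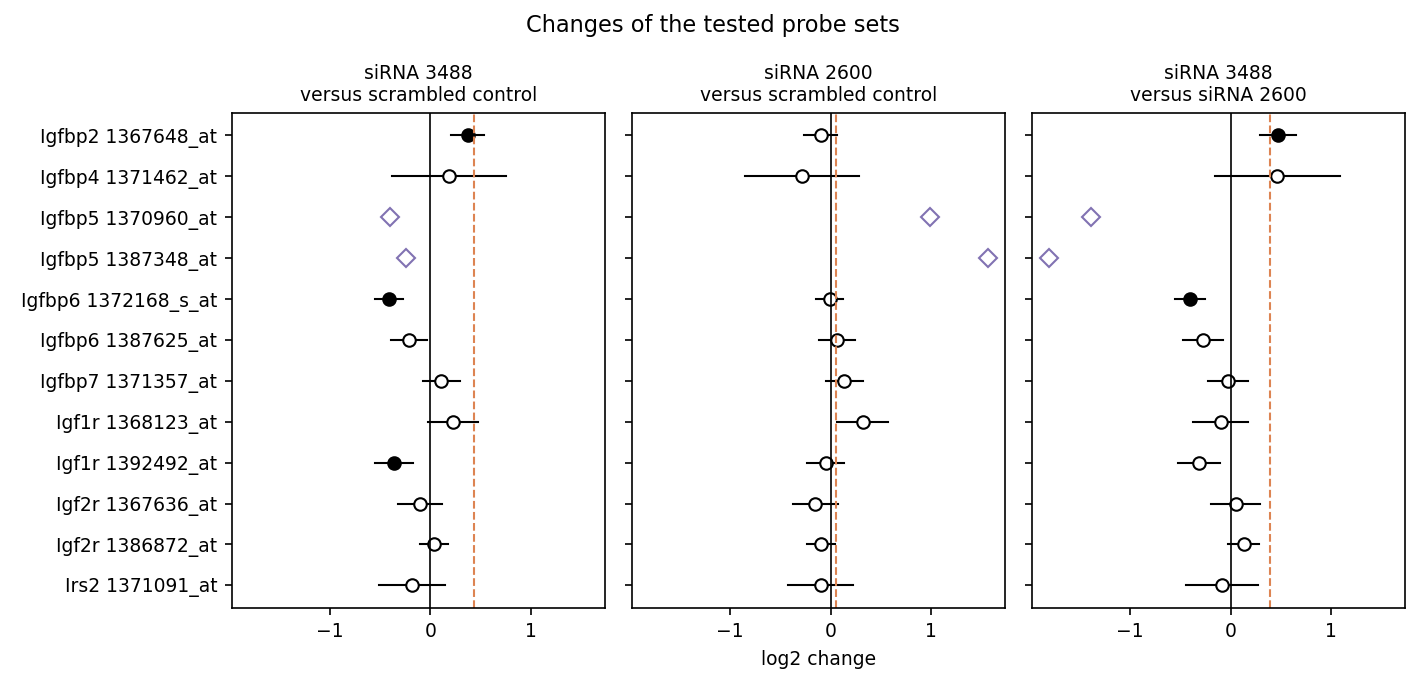
Log2 change of the 12 tested probe sets in 3 comparisons (x axis); circles carry the 95% interval of the limma fit and are filled where called, diamonds are Igfbp5, shown with no interval, and the dashed line is the median of the brightest 1% of probe sets. With siRNA 3488 the filled circles are Igfbp2 (0.37), Igfbp6 (-0.41) and Igf1r (-0.36), and with siRNA 2600 none is filled.

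With both siRNAs pooled against the control, none of the 10 probe sets was called by limma. At an unadjusted limma p under 0.05 there was 1, Igf1r 1368123_at at 0.27 ± 0.10 (limma adjusted p = 0.211). Nothing is read from that count, since the share of all probe sets at that level is not given. Over all probe sets tested 0.145% were called. Igfbp5 1370960_at averaged to 0.29 and 1387348_at to 0.66 in this comparison, with the siRNA arrays on both sides of the control. When each siRNA kept its own group in the fit and their effects were averaged, Igfbp6 1372168_s_at was called (-0.21, limma adjusted p = 0.0399), as were 7.40% of all probe sets in that fit.

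The genes whose signals followed Igfbp5 most closely over the 7 arrays were found by the correlation of log2 signal with the mean of its 2 tested probe sets, which correlated with each other at r = 0.962. The 5 highest of 13964 probe sets with a symbol were Oip5-as1 (r = 0.987), Asnsd1 (0.986), Vps29 (0.986), Ndufs3 (0.984) and Olfml3 (0.983). Oip5-as1, a long noncoding RNA, read 1419 and 1432 with siRNA 2600, 775 to 886 with the control and 654 and 660.5 with siRNA 3488. Its log2 change with siRNA 2600 was 0.83, while those of the other 4 lay between 0.12 and 0.29, so they shared the order of the group means with Igfbp5 but not the size. The 3 lowest were Medag (r = -0.979), Ttc13 (-0.978) and Pglyrp1 (-0.978), which read lowest with siRNA 2600. With so many probe sets and 7 arrays in 3 groups, r above 0.9 was reached by 158 of them, and these values describe the arrays without a test.

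The other genes of the pathway were taken from 8 lists with 82 genes on the arrays, of which 67 had a tested probe set, each gene by its brightest. With siRNA 3488, 10 rose, 7 fell and 50 did not pass, and with siRNA 2600, 2 rose and none fell. Over all probe sets tested 6.89% were called higher and 8.74% lower with siRNA 3488, and 1.03% were called with siRNA 2600. In a fit of the upper 40% by signal, 23.4% were called with siRNA 3488 and 1.83% with siRNA 2600. The list genes were taken by their brightest probe set, so the shares of all probe sets, here and below, are not a like background. No excess is read from the list counts. With both siRNAs together limma called none of the 67. At an unadjusted limma p under 0.05 there were 12 with both siRNAs together, 26 with siRNA 3488 and 12 with siRNA 2600. The share of all probe sets at that level is not given here, so no excess is read from these counts. The median change of the 67 was -0.01 with either siRNA, beside -0.06 and -0.02 over all probe sets. Without siRNA 3488 replicate 2 the count with siRNA 3488 was 5 instead of 17, and without control replicate 1 or 2 it was 9 or 10.

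No ligand of the family was measured well on these arrays. The 12 probe sets of Igf1, Igf2, Ins1, Ins2, Igfbp1, Igfals and Igfbpl1 include 1 that passed the filter, for Ins1, whose signals scattered from 15.6 to 150 (log2 change 1.11 ± 0.74 with siRNA 3488, limma adjusted p = 0.337). Those of Igf1 reached at most 48.8, those of Igf2 at most 53.9, and that of Igfbp1, the neighbour of Igfbp3, at most 9.09. Detection calls were not used here, so these genes are only said to be below the filter.

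In the list of proteases of the binding proteins and their inhibitors, Timp1 was called among 7 tested genes. Timp1 encodes an inhibitor of matrix metalloproteases and rose from 10399.7 ± 469 (n = 3) to 15414 ± 2186 (n = 2) with siRNA 3488, a change of 0.56 ± 0.09 (limma adjusted p = 0.00602). With siRNA 2600 it read 12008 and 13701, above the control arrays too. Its call with siRNA 3488 held under 16 of 17 alternatives, but its change was 0.17 after quantile normalization and 0.29 after cyclic loess. Ctsd, the gene of the lysosomal protease cathepsin D, was at 0.03 ± 0.08 and did not pass, nor did Pappa2 (0.38 ± 0.32).

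Among 11 other receptors and adaptors 1 rose and 1 fell with siRNA 3488. Grb10, whose protein binds the IGF1 and insulin receptors and restrains their signal, read 614 and 611 with siRNA 3488, 822 and 763 with siRNA 2600 and 768 to 806 with the control. That is a change of -0.37 ± 0.08 (limma adjusted p = 0.0151), called under 12 of 17 alternatives and lost without siRNA 3488 replicate 2 (limma adjusted p = 0.0886) or control replicate 1 (0.0637). A second probe set of Grb10, 1397211_at, also passed (-0.57, limma adjusted p = 0.0458), and 1394610_at did not (-0.37, limma adjusted p = 0.283). Nedd4, the gene of a ubiquitin ligase that binds GRB10, rose by 0.31 ± 0.07 on its brightest probe set, which turned to -0.08 after quantile normalization and was 0.04 after cyclic loess. Its call was lost without siRNA 3488 replicate 2 (limma adjusted p = 0.0837), control replicate 1 (0.0593) or control replicate 2 (0.0525). The insulin receptor gene Insr was at -0.09 ± 0.15.

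In the PI3K, AKT and mTOR branch 2 of 25 genes rose and 5 fell with siRNA 3488, where 6.89% and 8.74% of all probe sets did. Pik3ca, the gene of a catalytic subunit of PI3K, read 1009 and 1012 with siRNA 3488, 1176 and 1124 with siRNA 2600 and 1294 to 1444 with the control (log2 change -0.42 ± 0.08 with siRNA 3488, limma adjusted p = 0.00783). Its other 5 tested probe sets lay between -0.61 and -0.14, and 2 of them passed. Pdpk1, the kinase that activates AKT, fell by 0.39 on the log2 scale (SE 0.07, limma adjusted p = 0.00735), with 1627 and 1652 against control signals of 2031 to 2248, while its second probe set gave -0.14 (limma adjusted p = 0.479). Pik3r2, a regulatory subunit of PI3K, rose by 0.41 ± 0.10, and on its second probe set by 0.45 (limma adjusted p = 0.0251 and 0.0472). Eif4ebp1, a repressor of translation under mTOR, rose by 0.31 ± 0.06 (limma adjusted p = 0.0115), and its siRNA 2600 arrays, 2689.8 and 2742, were above the control arrays as well. Rictor (-0.31) and the AKT phosphatase gene Phlpp1 (-0.50) fell, and held their calls under 7 and 6 of 17 alternatives. The fifth that fell was Foxo3, a transcription factor gene under AKT control, which lay outside the rule for naming genes and is named after its values were seen. It read 1463 and 1427 with siRNA 3488, 1632 and 1567 with siRNA 2600 and 1655 to 1693 with the control. Its p ranked after that of Phlpp1 (limma adjusted p = 0.0456), close to the threshold, and its change under the alternatives is not given. Without siRNA 3488 replicate 2 the calls of Pik3ca (limma adjusted p = 0.0596), Pdpk1 (0.0523), Pik3r2 (0.183) and Eif4ebp1 (0.0672) were lost. Those of Pik3r2 and Eif4ebp1 were also lost without 1 control array, replicate 2 (0.0876) or 3 (0.0607) for the former and replicate 1 (0.0539) for the latter. Akt1 (-0.02) and Mtor (-0.07) did not pass.

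Trib3, which encodes a protein that binds AKT, had the same order of group means as Igfbp5 on its brightest probe set. Its signals were 344 and 346 with siRNA 3488, 347 to 417 with the control and 524 and 499 with siRNA 2600. The 2 siRNAs differed by -0.57 ± 0.12 (limma adjusted p = 0.0317), which held under 7 of 17 alternatives, and neither siRNA alone was called against the control. Without either siRNA 3488 array, siRNA 2600 replicate 1 or control replicate 1 or 2 the limma adjusted p was 0.0519 to 0.140. A second probe set, 1370695_s_at, also differed between the siRNAs (-0.83, limma adjusted p = 0.0270), and another, 1370694_at, gave -0.32 (limma adjusted p = 0.551), with siRNA 3488 at 0.09 against the control and so not in that order.

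Of 10 genes of the Ras and MAPK branch Rps6ka3, a kinase downstream of ERK, was called. It read 955 and 867 with siRNA 3488, 1305 and 1259 with siRNA 2600 and 1325 to 1598 with the control, and its change of -0.68 ± 0.09 (limma adjusted p = 0.00312) was called under all 17 alternatives. A second probe set fell as well (-0.47, limma adjusted p = 0.00926), and another was at -0.57 (limma adjusted p = 0.0564).

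The CCN family shares with the binding proteins a domain at the amino end, and 2 of its 5 tested genes rose with siRNA 3488. Over all probe sets, bright and dim, 6.89% rose, and the brightest 1% had a median change of 0.44. Ccn1 read 8224 and 7457 with siRNA 3488 against 3823 to 5166 with the control (0.88 ± 0.19, limma adjusted p = 0.0145). With siRNA 2600 it read 4054 on replicate 1 and 6843 on replicate 2. The call of Ccn1 was lost without either siRNA 3488 array or control replicate 1 or 2 (limma adjusted p from 0.0512 to 0.0811). Ccn2 rose from 13119.8 ± 439.7 (n = 3) to 16659 ± 198 (n = 2), a change of 0.35 ± 0.06 (limma adjusted p = 0.00690), which turned to -0.04 after quantile normalization and was 0.06 after cyclic loess.

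Among partners of the binding proteins in the matrix, Fn1, Itgb1 and Col1a1 rose with siRNA 3488, 3 of 5 tested genes, beside 6.89% of all probe sets and a median change of 0.44 over the brightest 1%. Fibronectin (Fn1), which binds IGFBP3 and IGFBP5, read 4276 and 4587 with siRNA 3488, 3413 and 3359.9 with siRNA 2600 and 3126 to 3193 with the control (0.49 ± 0.06, limma adjusted p = 0.00223). It was called under all 17 alternatives. Itgb1, an integrin subunit gene, rose by 0.36 ± 0.06 on its brightest probe set (0.03 after quantile normalization, 0.12 after cyclic loess) while another probe set gave 0.04 (limma adjusted p = 0.693). Col1a1, also 1 of the fibroblast markers, rose by 0.44 ± 0.08 (limma adjusted p = 0.00795) and on its other probe set by 0.41 (limma adjusted p = 0.00681). Without siRNA 3488 replicate 2 the first of these lost its call (limma adjusted p = 0.0599).

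The genes that rose with siRNA 2600 were Igf2bp2 and Spp1. Igf2bp2, which encodes a protein that binds the messenger of Igf2, read 421 and 394 with siRNA 2600, 391 and 343 with siRNA 3488 and 252 to 269 with the control. Its changes of 0.64 ± 0.12 with siRNA 2600 (limma adjusted p = 0.0373) and 0.49 ± 0.12 with siRNA 3488 (limma adjusted p = 0.0231) both passed, but a second probe set, 1382609_at, was at -0.42 and -0.44 and did not. Without any 1 array of either group compared the call was lost, with adjusted p from 0.0953 to 0.149 with siRNA 2600 and from 0.0629 to 0.107 with siRNA 3488. Spp1, the gene of the secreted matrix protein osteopontin, rose to 14623 and 17515 with siRNA 2600 from 11277 to 12439 with the control (0.44 ± 0.08, limma adjusted p = 0.0418). That call was lost without siRNA 2600 replicate 2 (0.31, limma adjusted p = 0.183) and without any 1 of the control arrays (0.120 to 0.179).

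**Figure D4:**
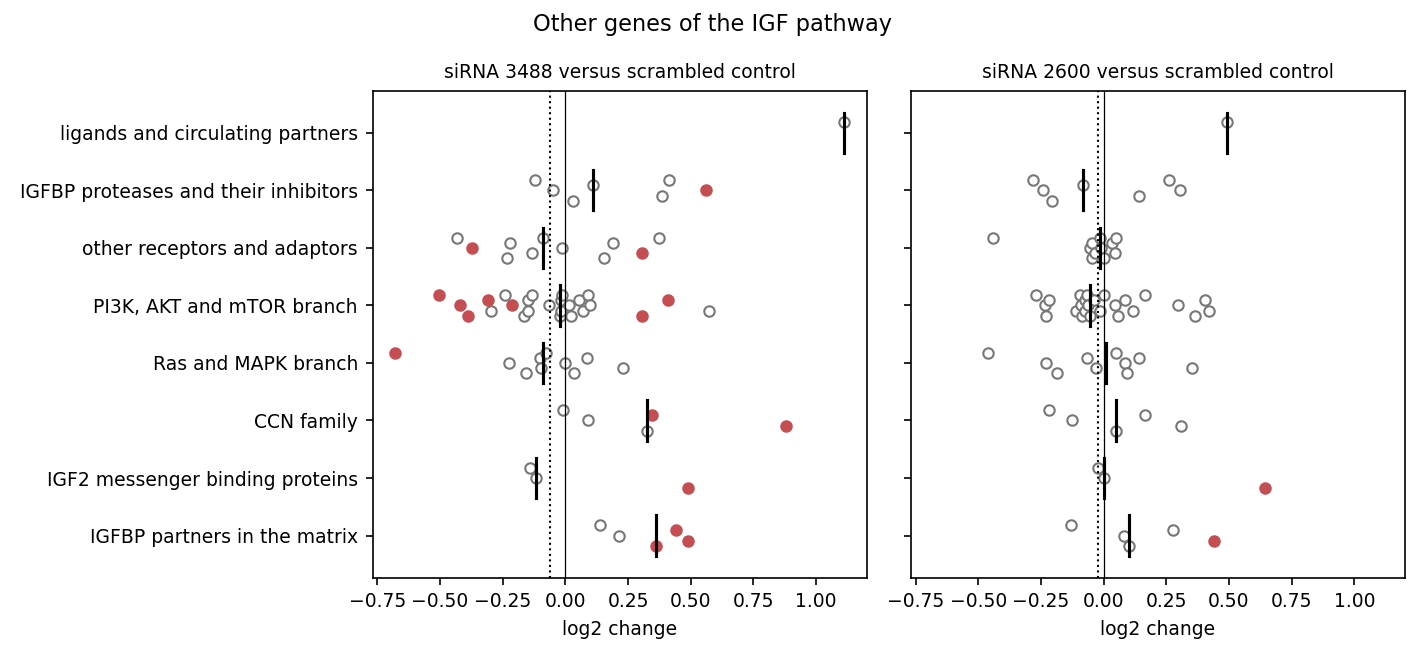
Log2 change (x axis) of each tested gene of the 8 pathway lists with siRNA 3488 and with siRNA 2600 against the control; filled points are called, black bars are list medians and the dotted line is the median over all probe sets tested. Of 67 genes 17 are filled with siRNA 3488 and 2 with siRNA 2600.

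Across the 17 alternatives Igfbp5 kept its directions, for which it was chosen. Alternatives such as no filter or no intensity trend leave the change itself unaltered, so the ranges are a description and not support. On 1370960_at the change ran from -0.42 to -0.28 with siRNA 3488 and from 0.89 to 1.08 with siRNA 2600. On 1387348_at it ran from -0.40 to -0.08 and from 1.24 to 1.72 over the 16 that tested it.

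**Figure D5:**
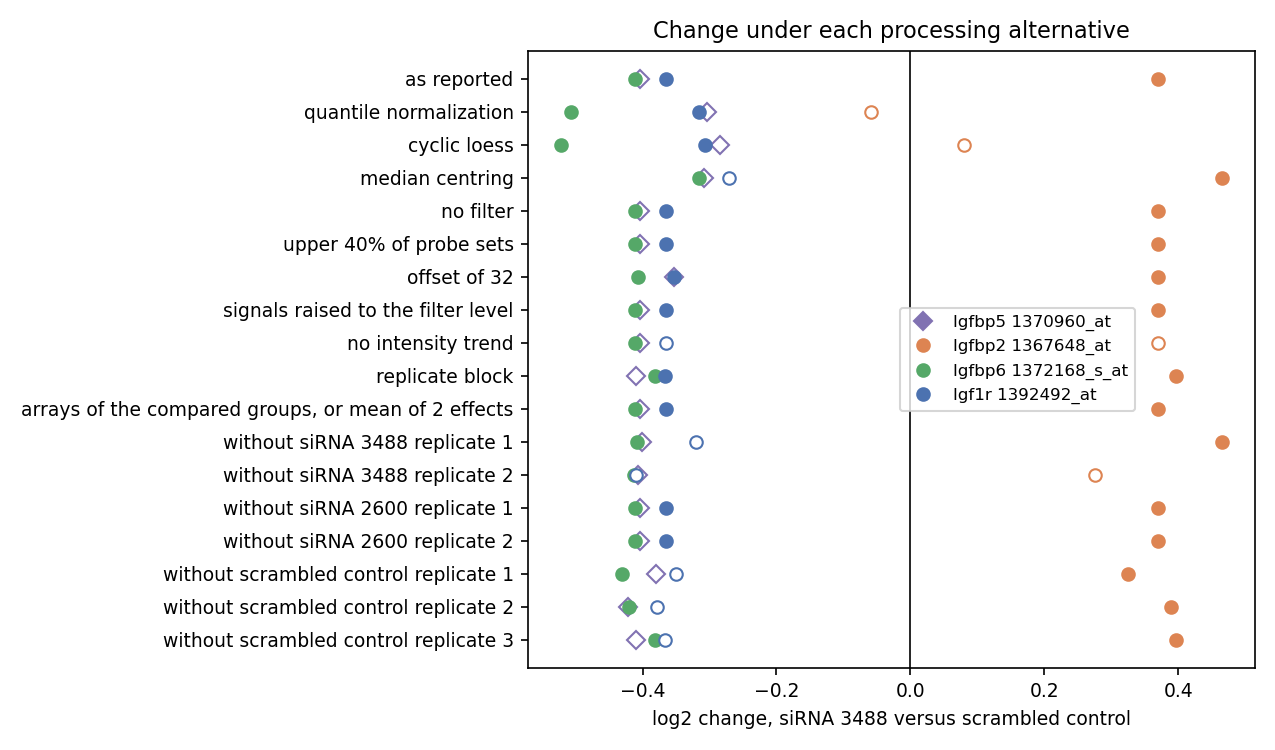
Log2 change with siRNA 3488 against the control (x axis) as reported and under each of 17 processing alternatives for 4 probe sets; circles are filled where called, and Igfbp5 (diamonds) has no test. Igfbp6 stays filled throughout, Igfbp2 moves from 0.37 to -0.06 after quantile normalization and 0.08 after cyclic loess, and Igf1r is open in 7 of them.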

How the data were processed

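Biotin-labelled RNA of 7 cultures was read on Affymetrix rat arrays of 31099 probe sets. The deposited values are linear intensities, made by the authors with GCOS 1.4 per the submitters' processing notes. For background and scaling the sources used here give no settings. On every array the mean, with 2% of values trimmed at each end, was 500.1 to 500.2. Signals under 1 were raised to 1 and log2 was taken, with no further normalization. The 57 control probe sets were left out. Probe sets were named through the platform annotation: 20826 had 1 symbol, 436 several and 9780 none, and 20758 of those with 1 symbol were found in RefSeq. The upper 60% by mean log2 signal (18625) were fitted with limma 3.58.1 in R 4.3.3 (3 groups, eBayes with an intensity trend, adjusted p under 0.05). Both siRNAs together were compared with the control in a fit of 2 groups. The procedure was also run on simulated data with independent noise and no shift of bright probe sets between arrays. The outcome is not given here and is not used for any result. Groups came from the sample labels. The number of arrays limits the precision.

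Alternatives were quantile normalization, cyclic loess, median centring, no filter, the upper 40%, an offset of 32, raising signals to the filter level, no intensity trend, the replicate number as a block, the compared groups alone, and leaving out each array. All members were named, and at most 6 called genes per list and comparison by lowest p. For likeness to Igfbp5 the 5 highest and 3 lowest correlations were named, 1 probe set a gene. The members and lists were chosen with earlier results of these data known. The siRNA sequences are those in the sample labels.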

Additional observations from a re-analysis of the deposited data

Results flagged for a closer look

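The effects of the 2 siRNAs differed for several genes. For Igfbp5 1370960_at all arrays of siRNA 3488 moved down and all of siRNA 2600 up, a difference of -1.39 in log2 change (siRNA 3488 minus siRNA 2600). That difference was not tested. For the others limma's test of the difference itself passed, always between 2 and 2 arrays whose signals did not overlap. The spread in that test came from all arrays, controls included. With the siRNA arrays alone none of these differences was called. Among the binding proteins it was 0.47 for Igfbp2 (limma adjusted p = 0.0152) and -0.40 for Igfbp6 1372168_s_at (limma adjusted p = 0.0144).

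On the pathway lists siRNA 3488 was the higher of the 2 for Ccn2 (0.47, limma adjusted p = 0.00956), Fn1 (0.39, limma adjusted p = 0.0144), Itgb1 (0.28, limma adjusted p = 0.0373) and Pik3r2 (0.51, limma adjusted p = 0.0330). It was the lower for Grb10 (-0.37, limma adjusted p = 0.0405), Pdpk1 (-0.38, limma adjusted p = 0.0240), Rps6ka3 (-0.49, limma adjusted p = 0.0239) and Trib3 (-0.57, limma adjusted p = 0.0317). Other probe sets passed for Rps6ka3 (1382707_at, -0.42, limma adjusted p = 0.0380) and Trib3 (1370695_s_at, -0.83, limma adjusted p = 0.0270). Those that did not pass were Itgb1 1387346_at (0.07), Pdpk1 1370052_at (-0.19), Pik3r2 1370100_at (0.34), Grb10 1394610_at (-0.25) and 1397211_at (-0.54), Rps6ka3 1385732_at (-0.54) and Trib3 1370694_at (-0.32). Of 17 alternatives, 13 called Ccn2, 13 Fn1, 12 Rps6ka3, 10 Pdpk1, 7 Pik3r2, 7 Trib3, 5 Grb10 and 4 Itgb1.

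For Igfbp4 1 of the 4 siRNA arrays stood apart. The log2 signal of siRNA 2600 replicate 1 (a signal of 249) lay below the other three by a gap of 0.835 of the whole range, above the value Dixon's test allows at the 95% level. Of such groups of 4 arrays, 30 were examined, and chance alone marks about 1 in 20 where all 4 come from the same distribution. Here each group joined the arrays of both siRNAs, so that rate need not hold.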

How the results depend on the processing

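Of the members' calls, Igfbp6 1372168_s_at with siRNA 3488 passed under all 17 alternatives. With siRNA 3488 the 3 member calls became 1 without an intensity trend and ran from 1 to 3 when 1 array was left out. Between the siRNAs the 2 calls became 0 without the trend and 0 with the compared groups alone, and ran from 0 to 3. For both siRNAs together the mean of the 2 effects gave 1 call. On the pathway lists the 17 calls with siRNA 3488 became 11 (quantile), 10 (cyclic loess) and 3 (no trend), and ran from 5 to 20 with 1 array left out. The 2 calls with siRNA 2600 became 4 (quantile), 4 (median centring), 0 (no filter), 0 (no trend) and 1 (replicate block), and ran from 0 to 2. Between the siRNAs the 8 calls became 5 (quantile), 4 (median centring), 4 (no filter), 0 (no trend) and 0 (compared groups), and ran from 0 to 10. For both together the 0 calls became 1 (quantile), 1 (loess), 2 (median centring) and 9 (mean of effects), and ran from 0 to 8. Signs turned after quantile normalization for Igfbp2 (-0.059), Igfbp7 (-0.10), Ccn2 (-0.044) and Nedd4 (-0.075) with siRNA 3488, and after cyclic loess for Igfbp7 (-0.066). With siRNA 2600 median centring turned Igfbp6 1372168_s_at (0.076) and Igf1r 1392492_at (0.036), and the replicate block turned the former (0.019). For both siRNAs together quantile normalization turned Igfbp2 (-0.12), Igfbp4 (0.022) and Igfbp7 (-0.019), and cyclic loess turned Igfbp2 (-0.044) and Igfbp4 (0.031). Median centring turned Igfbp4 (0.041), Igfbp6 1387625_at (0.017) and Igf2r 1386872_at (0.060), and the replicate block turned Igfbp4 (0.19). With 1 array left out, the changes that crossed 0 with siRNA 3488 were Igf2r 1386872_at (-0.015 to 0.083), Igfbp7 (-0.0016 to 0.22) and Igfbp4 (-0.017 to 0.42). With siRNA 2600 they were Igfbp4 (-0.66 to 0.094), Igfbp6 1372168_s_at (-0.056 to 0.036), Igf1r 1392492_at (-0.16 to 0.061), Irs2 (-0.33 to 0.13) and Igfbp6 1387625_at (-0.0098 to 0.12). Between the siRNAs they were Igfbp7 (-0.14 to 0.079), Igf2r 1367636_at (-0.064 to 0.16) and Irs2 (-0.31 to 0.15), and for both together Igfbp4 (-0.25 to 0.19). The cause of these shifts was not tested. Whole arrays correlated at 0.966 or more for any pair. With the group means taken out, same-numbered arrays correlated at 0.14 between the siRNAs and at 0.07 and 0.02 between siRNA 3488 and the control. Between siRNA 2600 and the control these values were 0.16 and -0.05. With 2 arrays in each siRNA group, such values cannot show whether same-numbered arrays were prepared together. With the replicate block the member calls were 3, 0, 3 and 0 in the 4 comparisons. Igfbp5 1387348_at was below the level of the upper 40%. Signals under 68.2 were too scattered to order the groups of Igfbp3 and Adamts16.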
